A study of Rhodotorula toruloides with 36 samples.

Results

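In this strain set of the oleaginous yeast Rhodosporidium toruloides, 65 native transcripts were more abundant in the α-bisabolene producer GB2 than in the wild type (WT) at both 18 h and 48 h of growth. They were chosen by measured values, out of 8490 native transcripts, of which 6915 had the level the rule needed. The level of a transcript in a library was its count per 1000000 counts of that library (CPM), and the difference of a strain from WT was the log2 ratio of the mean CPM plus 1 in the strain to that in WT. CPM is a share of a library's RNA, so levels per cell were not measured. The median of this ratio over transcripts averaging 10 CPM or more in WT was taken off. That median was -0.37 for GB2 at 18 h and -0.25 at 48 h. A member had a difference of GB2 from WT of at least 1, a 2-fold ratio, at both times, and a mean of at least 10 CPM in WT or GB2 at each time. Of the eligible transcripts, 601 (8.69%) passed at 18 h, 195 (2.82%) passed at 48 h and 65 (0.940%) passed both. Genes of the mevalonate, sterol and fatty acid supply list of the study were left out by the rule, although none of the 17 passed: 10 reached 1 at 18 h and 0 at 48 h, where the highest value was 0.89.

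All strains derived from the WT strain IFO0880 and were grown in SD, a defined medium, which the labels give with 2% glucose and the methods of the study with a lower concentration. BIS18, BIS14 and BIS3 carried, in rising copy number, the α-bisabolene synthase gene BIS under the native GAPDH promoter. GB2 was BIS3 with further BIS copies under the native ANT promoter. By the study's list, the GAPDH plasmid also carried nourseothricin resistance (Nat) and the ANT plasmid hygromycin B resistance (Hyg). Each engineered strain was a single transformant with its cassettes at random loci. A strain's copy number, its resistance genes and its other integration effects therefore cannot be told apart. At each time there were 6 WT libraries and 3 of each engineered strain, 36 in all, and the study describes 18 h as exponential and 48 h as stationary phase. The labels do not say whether replicates were separate cultures, so the p-values measure the spread between these libraries only.

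α-Bisabolene synthase makes a sesquiterpene from farnesyl diphosphate, which the mevalonate pathway supplies and which is also the precursor of ergosterol. A strain with many copies of the synthase therefore draws on a pool that the cell uses for its own sterols. Native transcripts that differ from WT in such a strain may belong to that pathway or to any other part of the cell, and the counts alone do not name them. The deposited counts identify native transcripts by number, scaffold position, strand and length, and do not pair them with gene names, so the members are given here by number. Positions are those listed with the counts for the IFO0880 genome, whose build version is not given in the sources used here. The listed length equalled the whole span from start to end for all 65 members. No sequence of this strain was used.

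BIS itself followed the labels. The WT libraries of 18 h averaged 4.47 ± 1.40 CPM of it (SD, n = 6), against 979 ± 76.0 CPM for BIS18 and 7674 ± 1264 for BIS14. BIS3 libraries averaged 14951 ± 1967 CPM and GB2 libraries 20389 ± 815 (n = 3 for each engineered strain). Library totals were 1134992 to 2029181 counts at 18 h and 657951 to 3102440 at 48 h. The lowest total was that of WT replicate 2 at 48 h, which the rule leaves out. In that library the members' median stood 0.36 below the WT mean on the log2 scale, whereas the other 5 WT libraries of 48 h lay between -0.07 and 0.08. With it kept, the rule gave 100 transcripts, 58 of them among the 65. A member in a library could rest on few counts: 25 members had a count under 10 in at least 1 of all 36 libraries. Transcripts 11716 and 16201 had a count of 0 in 1 library each, which for both was WT replicate 2 at 48 h.

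**Figure D1:**
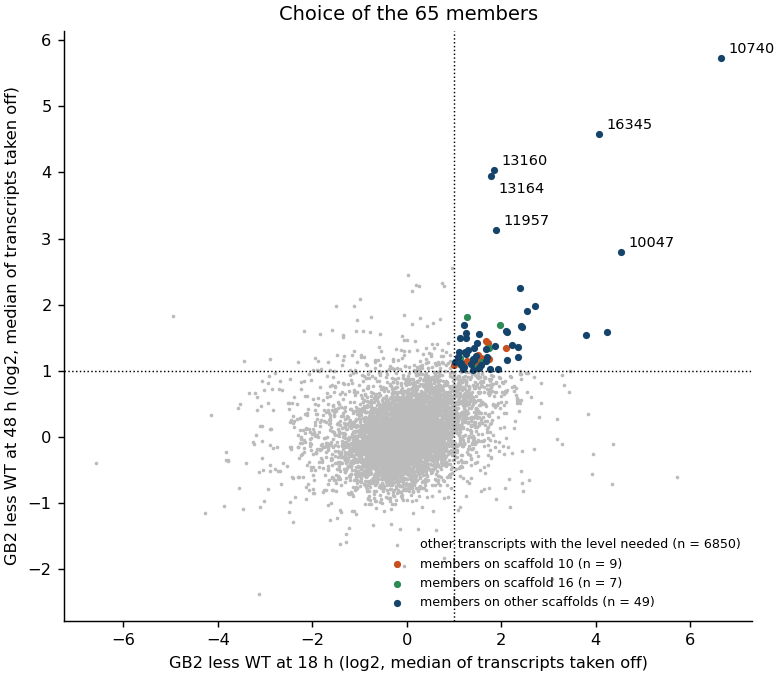
Difference of GB2 from WT at 18 h (x axis) and 48 h (y axis), both log2 of mean CPM plus 1 with the median taken off; each point is a transcript with the level needed, dotted lines mark the limit of 1, and members are coloured by scaffold. The members fill the upper right corner, with transcripts 10740 and 16345 farthest out; this shows the choice and is not a test.

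Among the 65 members the difference of GB2 from WT ranged from 1.01 to 6.65 at 18 h (median 1.57) and from 1.02 to 5.73 at 48 h (median 1.31). Transcripts 9459 (1.01 and 1.08) and 10111 (1.39 and 1.02) were just inside the limit. Transcripts 15817 (0.9956 and 1.07) and 9533 (0.9999 and 1.07) were just outside. Since the median taken off was negative, the limit was looser than a plain 2-fold ratio of CPM, and 27 of the 65 reached 1 with no median taken off. With WT replicates 1 to 3 in place of all WT libraries (1 and 3 at 48 h), 103 transcripts passed, 60 of them members, and with replicates 4 to 6, 65 passed, 54 of them members.

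The members were somewhat shorter than eligible transcripts, and more of them were low in WT. Their median length was 1566 bases (491 to 4534), against 1931 over all eligible transcripts, and 32 of 65 (49.2%) lay on the plus strand, against 49.7%. Their median level in WT was 40.3 CPM per kb at 18 h and 34.9 at 48 h, against 36.0 and 42.8 over all eligible transcripts. Not scaled by length, the WT median was 70.0 CPM at 18 h, against 75.4, and 48.6 CPM at 48 h, against 85.7. Below 10 CPM in WT were 12 of the 65 at 18 h and 9 at 48 h, against 88 and 40 of the 6915 eligible transcripts. Such a transcript was eligible only through GB2, so this excess follows at least in part from the rule. Transcript spans overlapped a neighbour's span for 12 members (18.5%), against 23.7% of eligible transcripts. The highest levels per length in GB2 at 18 h were those of transcripts 16376 (3286 CPM per kb) and 10111 (2111 CPM per kb), followed by 11578, 13164, 9479 and 10740.

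Transcript 10740, on the plus strand of scaffold 13 at 452902 to 454246, had the largest difference at both times, 6.65 at 18 h and 5.73 at 48 h. Its WT libraries at 18 h ran from 20.03 to 31.2 CPM with a median of 21.4. BIS18 libraries held 119.9, 147 and 184 CPM, BIS14 libraries 492, 532 and 503, BIS3 libraries 1142, 1358 and 1215, and GB2 libraries 1858, 1882 and 1792. The 5 strains did not overlap, and their order was that of the BIS level. At 48 h the WT libraries ran from 23.3 to 40.9 CPM (median 29.7), and the strains again did not overlap, BIS18 holding 118 to 137 CPM, BIS14 437 to 460.0, BIS3 832 to 961 and GB2 1309 to 1598. The comparisons among BIS18, BIS14 and BIS3, whose libraries the rule did not use, were all called for this transcript. At 18 h it was higher in BIS14 than in BIS18 by 1.91 ± 0.16 (log2 ± SE, edgeR quasi-likelihood test, adjusted p = 3.45e-07) and higher in BIS3 than in BIS14 by 1.42 ± 0.15 (adjusted p = 1.39e-05). At 48 h these differences were 1.92 ± 0.13 (adjusted p = 3.29e-09) and 0.84 ± 0.12 (adjusted p = 0.000249). The call of BIS3 against BIS14 was lost at 18 h with only these groups in the fit (adjusted p = 0.0556) and at 48 h with WT replicate 2 kept (0.357), with differences of 1.40 and 0.85. The neighbours 10739 and 10741 differed from WT by -1.93 and 0.83 in GB2 at 18 h and by 0.02 and 0.84 at 48 h.

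Transcript 16345, on the minus strand of scaffold 8 at 1213713 to 1217281, was low in WT and many times higher in every library of the 4 engineered strains. WT libraries at 18 h ran from 0.670 to 4.41 CPM with a median of 2.55. The 12 engineered libraries of 18 h held 22.9 to 48.3 CPM, and those of 48 h held 20.4 to 57.9 CPM against 0.381 to 2.82 in WT. Unlike transcript 10740, it showed no called difference among BIS18, BIS14 and BIS3. At 18 h BIS3 less BIS18 was 0.14 ± 0.24 (adjusted p = 0.692), and at 48 h it was 0.42 ± 0.20 (adjusted p = 0.138, edgeR quasi-likelihood test). Differences of the size of these errors could not be told from 0.

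**Figure D2:**
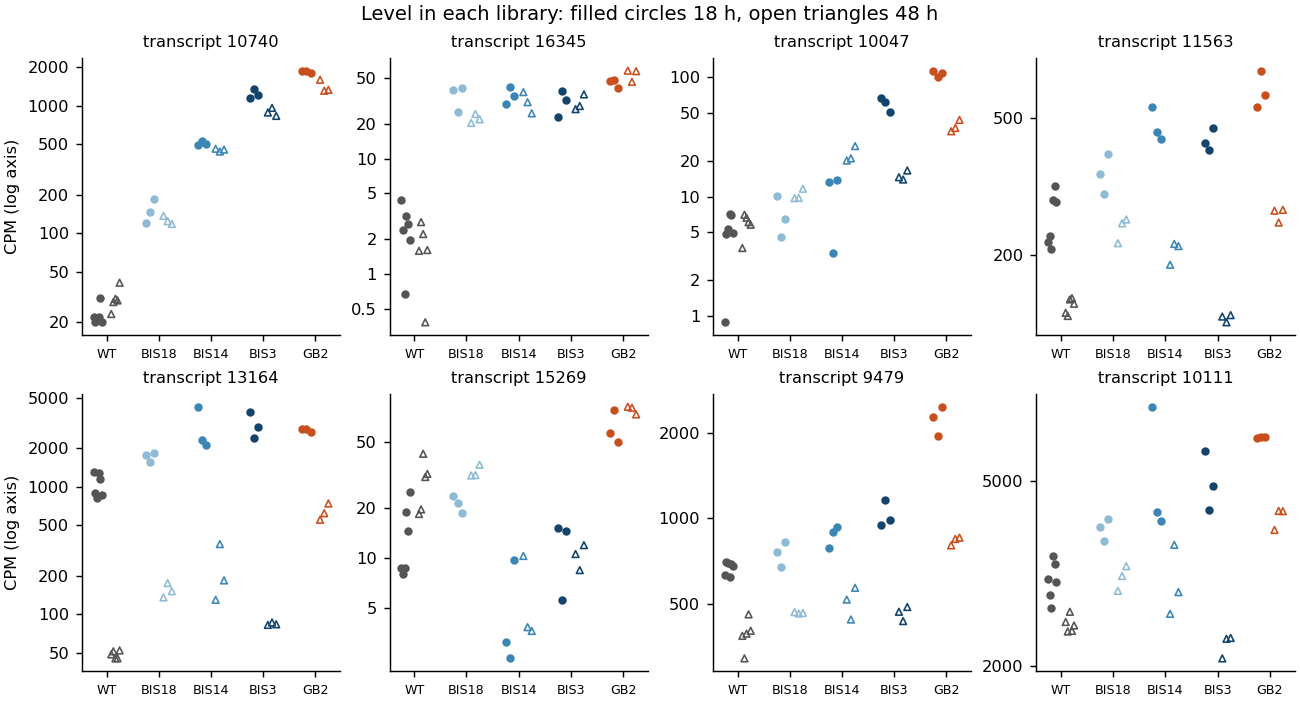
Level of 8 members in each library (y axis, CPM, log axis) by strain (x axis), with filled circles for 18 h and open triangles for 48 h; WT replicate 2 at 48 h is not drawn. Transcript 10740 rises in the order of the BIS level, 16345 is at 22.9 to 48.3 CPM in all engineered libraries of 18 h, and 15269 is low in BIS14 and high in GB2.

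In the strains the rule did not use, the members as a whole stood above WT, by less than in GB2. At 18 h the members' median difference from WT was 0.24 for BIS18, 0.85 for BIS14, 0.89 for BIS3 and 1.57 for GB2. For the same strains it was 0.50, 0.89, 0.36 and 1.31 at 48 h. The medians over eligible transcripts lay between 0.00 and 0.02. A difference of 1 or more was reached in BIS3 by 29 of the 65 at 18 h and 14 at 48 h, against 2.94% and 0.709% of eligible transcripts. In BIS14 it was reached by 21 and 28 (2.31% and 2.69% of eligible transcripts), and in BIS18 by 2 and 10 (0.289% and 0.954%). These comparisons share the WT libraries that the rule used, so they are values side by side and no test.

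**Figure D3:**
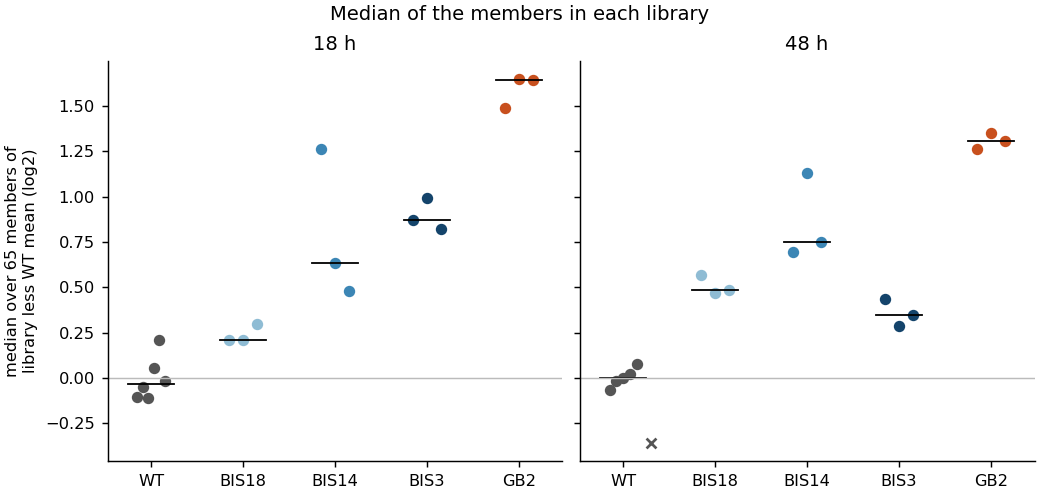
Median over the 65 members of each library's level relative to the WT mean (y axis, log2, median over transcripts taken off) by strain (x axis) at 18 h (left) and 48 h (right); each point is a library, bars are group medians, and the cross is WT replicate 2 at 48 h, which was left out. BIS3 stands above BIS18 at 18 h and below BIS18 at 48 h, and GB2 is highest at both times by the choice of members.

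Library by library, the members' median relative to WT was 0.21 to 0.29 in BIS18 at 18 h, 0.82 to 0.99 in BIS3 and 1.49 to 1.65 in GB2. BIS14 was spread wider, from 0.48 in replicate 3 to 1.26 in replicate 1. At 48 h the BIS18 libraries ran from 0.47 to 0.57 and the BIS3 libraries from 0.29 to 0.44, so that BIS3 lay wholly below BIS18. BIS14 replicate 2, at 1.13, then stood above the other BIS14 libraries at 0.69 and 0.75. The other BIS14 libraries still lay between BIS18 and BIS3 at 18 h and above both strains at 48 h.

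At 18 h, members were more often higher in BIS3 than in BIS18 than transcripts in general. Of the 65, 34 (52.3%) were higher in BIS3 at an adjusted p under 0.05 and 0 were lower (2 lower at an unadjusted p under 0.05 and 0 lower by DESeq2). Over all 7375 transcripts tested, 15.4% were called higher and 13.8% lower. The members' median difference was 0.65, against -0.03 over all transcripts. The clearest after 10740 was transcript 10047, on the plus strand of scaffold 11 at 571932 to 573047. Its BIS18 libraries of 18 h held 10.0, 4.54 and 6.45 CPM, its BIS14 libraries 13.4, 3.34 and 13.9, its BIS3 libraries 67.0, 62.4 and 51.2 and its GB2 libraries 114, 100.2 and 108. BIS3 stood apart from BIS18 by 3.39 ± 0.33 (adjusted p = 5.66e-07) and from BIS14 by 2.67 ± 0.32 (adjusted p = 3.72e-05), while BIS14 and BIS18 overlapped. The call against BIS14 was lost with only these groups in the fit (adjusted p = 0.0668).

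BIS14 was intermediate between BIS18 and BIS3 for most members at 18 h, although the step from BIS14 to BIS3 was mostly within the error. Of the 65, 23 (35.4%) were higher in BIS14 than in BIS18 and 2 lower, against 7.11% and 4.99% of all transcripts. The count rested on single libraries: it was 25 in all, 13 without BIS14 replicate 1, 10 without BIS18 replicate 1 and 8 without BIS18 replicate 2. With only these 2 groups in the fit it was 3. Between BIS14 and BIS3, 5 members were higher in BIS3 and 0 lower (2 lower at an unadjusted p under 0.05, 0 lower by DESeq2), against 1.27% and 1.61% of all transcripts. Without BIS14 replicate 1 there were 26 higher, without BIS14 replicate 3 there were 3, and with only the 2 groups there were 0. Group means rose in the order BIS18, BIS14, BIS3 for 41 of 65 members, against 25.5% of all transcripts, and BIS14 was highest of the 3 for 16, against 23.8%.

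Transcript 11471, on the plus strand of scaffold 15 at 693422 to 694637, showed the step that was clearest between BIS18 and BIS14 after 10740. BIS18 libraries of 18 h held 141, 159 and 153 CPM and BIS14 libraries 442, 318 and 308, a difference of 1.40 ± 0.15 (adjusted p = 1.15e-05, edgeR quasi-likelihood test). BIS3 libraries held 410.2, 353 and 322 CPM and overlapped those of BIS14. At 48 h the BIS14 libraries were spread from 91.9 to 246 CPM, and the difference of BIS14 from BIS18 was 0.56 ± 0.24 (adjusted p = 0.129).

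**Figure D4:**
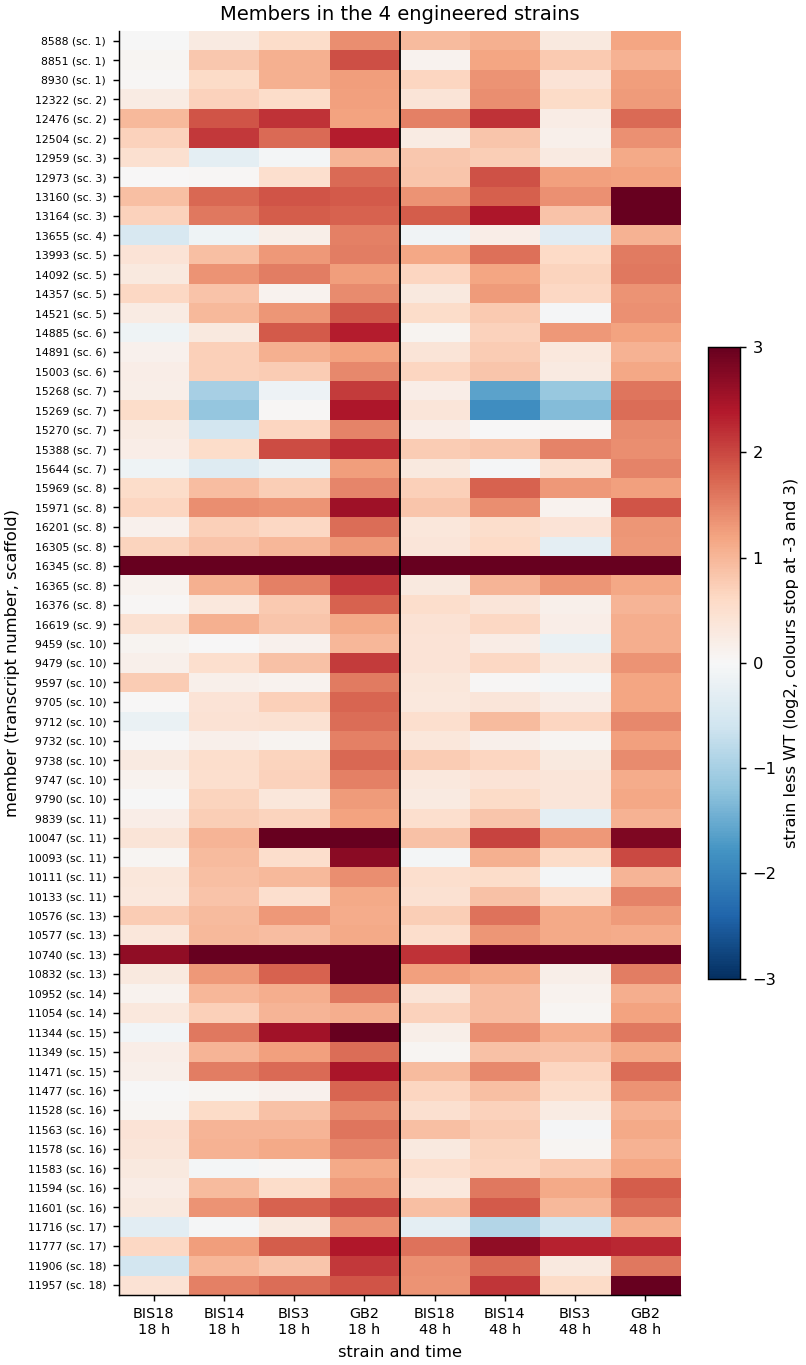
Difference from WT (colour, log2, median taken off, colours stop at -3 and 3) of the 65 members (rows, by scaffold and position) in the 4 engineered strains at 18 h (left) and 48 h (right). Most rows deepen from BIS18 to GB2 at 18 h, BIS3 is pale for most rows at 48 h (median 0.36), and transcripts 15268 and 15269 are blue in BIS14 at both times.

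At 48 h fewer members than at 18 h were called higher in BIS3 than in BIS18, and some were called lower. Of the 65, 11 (16.9%) were higher and 17 (26.2%) lower in BIS3 than in BIS18, against 8.97% and 9.77% of the 7913 transcripts tested, and the members' median was -0.08. Leaving out single libraries of BIS18 or BIS3 brought the 28 calls down to 16 without BIS18 replicate 1, 17 without BIS18 replicate 2, 17 without BIS18 replicate 3, 15 without BIS3 replicate 1 and 13 without BIS3 replicate 3. With WT replicate 2 kept there were 6. Only 8 members were higher in BIS3 at both times, namely 8851, 10740, 11344, 11349, 11777, 14885, 15388 and 16365. A further 8 were higher at 18 h and lower at 48 h, namely 10111, 10832, 11563, 12476, 13164, 13993, 14521 and 16376. Among the 34 called higher at 18 h, the other 18 had no call at 48 h. The other 9 called lower at 48 h had no call at 18 h. Shares of all transcripts with these pairs of calls are not given here.

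The test of the change itself compared the BIS3 to BIS18 difference at 48 h with that at 18 h. It was smaller at 48 h for 30 members and larger for 1, against 9.09% and 7.58% of 7899 transcripts. The median change was -0.87, against 0.02 over all transcripts. The exception was transcript 14357, at 1.00 ± 0.34 (edgeR quasi-likelihood test, adjusted p = 0.0426), named after its values were seen. Its call was lost with RLE normalization, with DESeq2, without each BIS18 or BIS3 library of 18 h in turn, and without replicate 1 or 3 of either strain at 48 h. With WT replicate 2 at 48 h kept, 15 members were called and all were smaller at 48 h. For BIS14 the same test called 0 smaller and 0 larger, against 0.266% in each direction, with 7 of each at an unadjusted p under 0.05. DESeq2 called 1 smaller. Without BIS14 replicate 1 at 18 h the median change of the members for BIS14 was 0.14 in place of -0.18, with 0 calls.

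Transcript 11563 was the clearest case, on the plus strand of scaffold 16 at 235279 to 236676. At 18 h its BIS18 libraries held 344, 301 and 392 CPM and its BIS3 libraries 424, 404 and 468, with no overlap. At 48 h the BIS18 libraries held 216, 247 and 254 CPM and the BIS3 libraries 133, 127.5 and 134, again with no overlap and in the opposite order. BIS3 less BIS18 was 0.60 ± 0.17 at 18 h (adjusted p = 0.0107) and -0.92 ± 0.11 at 48 h (adjusted p = 5.22e-06, edgeR quasi-likelihood test). The BIS3 libraries of 48 h lay at or below the lower end of the WT range of 133 to 149.8 CPM, and the GB2 libraries at 269, 249 and 271.

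Transcript 16365, on the minus strand of scaffold 8 at 1264628 to 1266243, kept its order. At 48 h it held 49.5, 53.2 and 52.2 CPM in BIS18 and 92.8, 139 and 104 in BIS3, a difference of 1.04 ± 0.16 (adjusted p = 0.00018), after 1.40 ± 0.19 at 18 h (adjusted p = 3.59e-05, edgeR quasi-likelihood test). With WT replicate 2 kept the 48 h difference was 1.06 and its call was lost (adjusted p = 0.0853). The GB2 libraries of 48 h, at 71.1, 106 and 89.3 CPM, overlapped those of BIS3. This was 1 of 3 members, with 14885 and 15388, that had their highest mean at 48 h in BIS3.

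BIS14 was the highest of the 3 strains with P_GAPDH-BIS alone for most members at 48 h. Group means put BIS14 above BIS18 and BIS3 for 46 of 65, against 30.4% of all transcripts, and only 6 followed the order BIS18, BIS14, BIS3, against 19.6%. Against BIS18, 19 members were higher in BIS14 and 2 lower, with 5.48% and 4.31% of all transcripts. With WT replicate 2 kept these 21 calls became 5, and without BIS14 replicate 2 they became 14. Against BIS14, 25 members were lower in BIS3 and 1, transcript 10740, was higher, with 5.02% and 2.33% of all transcripts. The 26 calls became 9 without BIS14 replicate 2, 14 without BIS3 replicate 1, 16 without BIS3 replicate 2, 12 without BIS3 replicate 3 and 8 with only the 2 groups in the fit. With WT replicate 2 kept they became 0, while the members' median stayed at -0.43. That library is in neither group, and why the calls changed was not tested.

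Transcript 11594, on the plus strand of scaffold 16 at 312681 to 315499, showed the rise in BIS14 at 48 h. Its BIS18 libraries held 72.8, 95.1 and 83.1 CPM, its BIS14 libraries 215, 180.1 and 174, its BIS3 libraries 167, 149 and 149.5 and its GB2 libraries 219, 208 and 238. BIS14 less BIS18 was 1.27 ± 0.14 (adjusted p = 1.18e-05) and BIS3 less BIS14 was -0.43 ± 0.14 (adjusted p = 0.0542, edgeR quasi-likelihood test). All 6 BIS14 and BIS3 libraries stood above all BIS18 libraries.

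In GB2, 56 members had their highest group mean at 18 h and 50 at 48 h. At 18 h the exceptions were 10577, 12504 and 16619, highest in BIS14, and 10576, 11054, 12476, 13160, 13164 and 14092, highest in BIS3. At 48 h 12 members were highest in BIS14. All GB2 libraries lay above all WT libraries for 64 members at each time, above all BIS3 libraries for 45 at 18 h and 52 at 48 h, and above every library of the other 4 strains for 30 at each time. For 19 members this last held at both times. Relative to its parent BIS3, GB2 had a median difference over the members of 0.71 at 18 h and 0.96 at 48 h, against 0.01 and 0.02 over eligible transcripts. It was below BIS3 for 5 members at 18 h and for 7 at 48 h. The rule chose the members by their values in these GB2 and WT libraries, so the separation of GB2 from WT largely follows from the choice. These counts are descriptions, given without the same counts over all eligible transcripts, and are no result about the members.

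The most abundant members by CPM in GB2 were transcripts 10111 and 16376. Transcript 10111, on the minus strand of scaffold 11 at 725110 to 728060, held 2664 to 3448 CPM in WT at 18 h (median 3051). Its BIS18 libraries held 3980.4, 3717 and 4159 CPM, its BIS14 libraries 7243, 4303 and 4114, its BIS3 libraries 5815, 4336 and 4898 and its GB2 libraries 6213, 6229 and 6247. BIS14 replicate 1 was the highest library of all. Transcript 16376, on the plus strand of scaffold 8 at 1286203 to 1287208, held 1128 to 1374 CPM in WT at 18 h (median 1291) and 3298, 3079 and 3539 in GB2, above the BIS3 libraries at 1444, 2272 and 1738. At 48 h it held 430.1 to 615 CPM in WT and 927, 922 and 921 in GB2.

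Between the times, more members fell than rose in each of the 3 strains that the rule did not use. In BIS18, 28 members were lower and 13 higher at 48 h than at 18 h, against 28.5% and 28.3% of 7899 transcripts. In BIS14, 32 were lower and 17 higher, against 26.9% and 27.0%, although these 49 calls became 32 with only the 2 groups in the fit. In BIS3, 42 were lower and 11 higher, against 29.7% and 31.9%. The members' medians were -0.28, -0.46 and -1.02, each against a median within 0.06 of 0 over all transcripts. The share of members higher at 48 h was thus near or below the background in each of the 3 strains.

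Transcripts 13160 and 13164, both on the plus strand of scaffold 3 at 726473 to 727733 and 736193 to 738048, fell the most. Transcript 13164 held 1786, 1579.8 and 1847 CPM in BIS18 at 18 h and 136, 176 and 152 at 48 h, and in BIS3 3888, 2408 and 2958 CPM at 18 h and 82.8, 86.6 and 83.7 at 48 h. The fall was -3.52 ± 0.28 in BIS18 (adjusted p = 9.98e-13), -3.80 ± 0.29 in BIS14 (adjusted p = 2.59e-13) and -5.57 ± 0.31 in BIS3 (adjusted p = 1.09e-16, edgeR quasi-likelihood test). For 13160 it was -4.82 ± 0.29, -5.22 ± 0.30 and -5.79 ± 0.30 in the same order. In GB2 transcript 13164 went from 2838, 2856 and 2706 CPM to 553, 621 and 741, and its 48 h libraries lay above all other libraries of that time, including WT at 45.2 to 52.2 CPM. Its difference of GB2 from WT was therefore larger at 48 h (3.94) than at 18 h (1.78), and that of 13160 likewise (4.04 and 1.85). The 3 transcripts between them, 13161 to 13163, had differences of -0.37 to 0.44 at 18 h and -0.28 to 0.21 at 48 h. Transcript 11957 on scaffold 18 had a similar pair of values, 1.89 and 3.13.

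Transcripts 14357 and 12959 rose the most between the times. Transcript 14357, on the minus strand of scaffold 5 at 1105736 to 1108814, held 12.9, 11.3 and 11.5 CPM in BIS18 at 18 h and 115, 119 and 104 at 48 h. The rise was 3.21 ± 0.19 in BIS18 (adjusted p = 2.76e-16), 3.93 ± 0.19 in BIS14 (adjusted p = 2.25e-18) and 4.20 ± 0.22 in BIS3 (adjusted p = 1.43e-17, edgeR quasi-likelihood test). Transcript 12959, on the plus strand of scaffold 3 at 243403 to 244179, rose by 2.77 ± 0.21, 3.51 ± 0.25 and 2.80 ± 0.25 in the same order. In WT it was uneven at 48 h, with 69.8 CPM in the lowest and 142 in the highest library.

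The longest run of neighbouring members was on scaffold 7, where transcripts 15268, 15269 and 15270 lay side by side from 102291 to 104134. The first 2 were on the minus strand and the last on the plus strand. Transcript 15269 held 8.01 to 25.1 CPM in WT at 18 h (median 11.7). BIS18 libraries then held 23.7, 21.6 and 18.6 CPM, BIS14 libraries 3.15, 2.50 and 9.78, BIS3 libraries 15.3, 5.61 and 14.6 and GB2 libraries 56.5, 77.8 and 49.9. At 48 h it held 18.5 to 42.6 CPM in WT, and the BIS18 libraries held 31.5, 31.7 and 36.6, the BIS14 libraries 10.3, 3.86 and 3.66, the BIS3 libraries 10.6, 8.50 and 12.0 and the GB2 libraries 81.7, 80.6 and 73.5. BIS14 and BIS3 were below the WT libraries at 48 h and GB2 above them, so GB2 and its parent BIS3 lay on opposite sides of WT. BIS14 less BIS18 was -1.89 ± 0.49 at 18 h (adjusted p = 0.0176) and -2.35 ± 0.33 at 48 h (adjusted p = 0.000228), and BIS3 less BIS18 was -1.70 ± 0.28 at 48 h (adjusted p = 0.000271, edgeR quasi-likelihood test). The call at 18 h was lost without BIS14 replicate 2 (adjusted p = 0.0635), without BIS18 replicate 1 (0.0592), without BIS18 replicate 2 (0.0562) and with only these groups in the fit (0.0623). The BIS14 call at 48 h was lost with WT replicate 2 kept (0.064).

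Transcript 15268 did as its neighbour at 48 h. BIS18 libraries held 28.1, 23.9 and 30.3 CPM, BIS14 libraries 7.30, 5.51 and 7.32, BIS3 libraries 9.51, 13.9 and 9.11 and GB2 libraries 74.2, 67.7 and 66.7. BIS14 less BIS18 was -1.97 ± 0.22 (adjusted p = 1.5e-05) and BIS3 less BIS18 was -1.45 ± 0.19 (adjusted p = 3.29e-05, edgeR quasi-likelihood test). Transcript 15270 was lower in BIS14 than in BIS18 at 18 h, by -0.83 ± 0.21 (adjusted p = 0.0152), a call lost without BIS14 replicate 2 (adjusted p = 0.0506), without BIS18 replicate 2 (0.0547) or with only these groups in the fit (0.0858). At 48 h BIS14 less BIS18 was -0.17 ± 0.20 (adjusted p = 0.621) for 15270, and the change between the times was 0.64 ± 0.29 (adjusted p = 0.332, edgeR interaction term). The transcripts on either side of the run, 15267 and 15271, were below the level the rule needed.

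The other run was a pair on scaffold 13, transcripts 10576 on the minus strand and 10577 on the plus strand, whose spans overlapped by 282 bases, 34.2% of the shorter. The library kit does not keep strand, so reads in the overlap cannot be assigned to either. Transcript 10576 held 12.7, 25.2 and 19.5 CPM in GB2 at 18 h against 6.17 to 13.4 in WT, and these groups overlapped. Both were higher in BIS14 than in BIS18 at 48 h, 10576 by 0.94 ± 0.20 (adjusted p = 0.00725) and 10577 by 0.84 ± 0.22 (adjusted p = 0.0202, edgeR quasi-likelihood test).

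**Figure D5:**
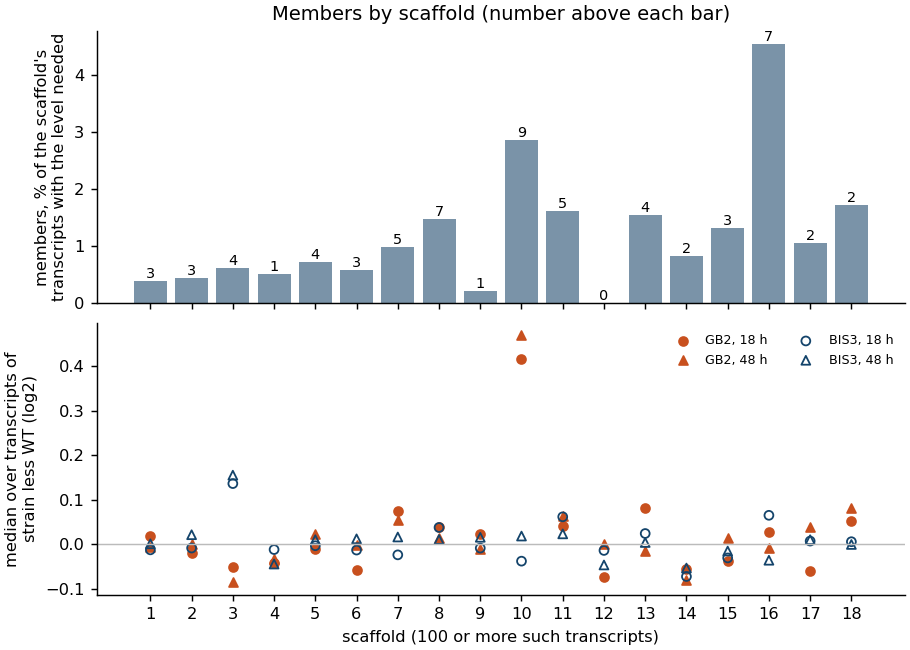
Upper panel: members as a percentage of the transcripts with the level needed on each scaffold, with the number of members above the bar; lower panel: median over all such transcripts of the difference from WT (log2) for GB2 (filled) and BIS3 (open) at 18 h (circles) and 48 h (triangles). Only scaffolds with at least 100 such transcripts are drawn. Scaffold 16 holds 7 members (4.55%), scaffold 10 holds 9 (2.86%), and among those drawn only scaffold 10 is raised as a whole in GB2.

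The members were spread over 17 scaffolds, with the highest shares on scaffolds 16 and 10. Scaffold 10 held 9 of the 65 (13.8%) and 4.56% of the eligible transcripts. On this scaffold the median over all 315 eligible transcripts was 0.42 in GB2 at 18 h and 0.47 at 48 h, where the other 17 scaffolds with at least 100 eligible transcripts lay between -0.07 and 0.08 and between -0.09 and 0.08. In the GB2 libraries the scaffold's median was 0.38 to 0.43 at 18 h and 0.45 to 0.51 at 48 h, and in the BIS18, BIS14 and BIS3 libraries of both times it was between -0.03 and 0.06. The raise was present in each of 5 equal stretches of the scaffold, at 0.34 to 0.55 at 18 h and 0.44 to 0.56 at 48 h, and 297 of the 315 transcripts were above 0 at 48 h.

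The members on scaffold 10 were 9459, 9479, 9597, 9705, 9712, 9732, 9738, 9747 and 9790. None of the 9 stayed a member once the median of the own scaffold was taken off, whereas 54 of the other 56 did, and 7 further transcripts entered. At 18 h alone, 7 of the 9 were still at least 1 above the median of the scaffold's eligible transcripts, but the rule needs both times. In BIS3 these 9 differed from WT by 0.09 to 0.89 at 18 h and by -0.20 to 0.65 at 48 h. Transcript 9479, on the plus strand at 130603 to 132125, had 18 h levels of 948, 1160.0 and 990.4 CPM in the BIS3 libraries and of 2284, 1947 and 2474 CPM in the GB2 libraries. Its 48 h levels were 469, 434 and 487 CPM for BIS3 and 803, 846 and 855 CPM for GB2. Transcript 9459, on the minus strand at 83961 to 86301, had 18 h levels of 225, 287 and 237 CPM in the BIS3 libraries and 422, 441 and 414 CPM in the GB2 libraries. In both, the GB2 libraries were above all others. Of the 19 members whose GB2 libraries lay above every other library at both times, 7 were on scaffold 10. The same counts over all eligible transcripts, or over those of scaffold 10, are not given, so this is a description only.

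Scaffold 16 differed from scaffold 10. It held 7 members among 154 eligible transcripts, 11477, 11528, 11563, 11578, 11583, 11594 and 11601, while its median in GB2 was 0.03 at 18 h and -0.01 at 48 h. Of these, 5 lay between 235279 and 336059, without being direct neighbours. Their BIS3 values ranged from 0.03 to 1.77 at 18 h and from -0.04 to 1.13 at 48 h. Over all scaffolds, 98 eligible neighbours of members were no members themselves. Their median difference of GB2 from WT was 0.13 at 18 h and 0.14 at 48 h, against 0.01 and 0.02 over all eligible transcripts. It was 0.10 and 0.07 over the 84 of them off scaffold 10. A difference of 1 or more was reached by 11 of the 98 at 18 h and 3 at 48 h, against 601 and 195 of the 6915 eligible transcripts.

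The 17 listed genes of the mevalonate pathway, the sterol branch and fatty acid supply leaned as the members did at 18 h. They did not at 48 h. At 18 h, 12 of the 17 were higher and 0 lower in BIS3 than in BIS18, beside 34 and 0 of the 65 members. Over all transcripts, 15.4% were called higher and 13.8% lower. At 48 h 7 of the 17 were higher and 0 lower, where 11 members were higher and 17 lower. The shares of all transcripts were then 8.97% and 9.77%. Of the 17, 15 were lower and 0 higher at 48 h than at 18 h in BIS3. For the members these counts were 42 and 11, and over all transcripts the shares were 29.7% and 31.9%. The study lists these 17 genes with their 18 h changes from WT in the same strains, so the list is not independent of these data. The difference between the lists was not tested.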

How the data were processed

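RNA was sequenced by the authors from TruSeq RNA v2 libraries as paired ends on a MiSeq. By the methods of the study, reads were filtered with BBTools, aligned by HISAT2 to a reference made of the IFO0880 assembly plus BIS, and counted per transcript with featureCounts. Versions and the strand setting are not given in the sources used here. The deposited values are raw counts for 8493 entries, with 0 columns left unused. Members and gene lists were chosen with earlier results of these data known. Members were found in CPM from library totals with a pseudocount of 1, and have no test against WT or with GB2.

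Tests among BIS18, BIS14 and BIS3 used edgeR 4.0.16 (R 4.3.3) on the deposited counts: TMM, filterByExpr, quasi-likelihood, Benjamini-Hochberg over all transcripts, adjusted p under 0.05. There was a fit for the 18 libraries of 18 h, a fit for 17 of 48 h and a fit for 35, without WT replicate 2 at 48 h. All 65 members were tested in each. SE is the log2 difference divided by the root of F. Named transcripts were the 2 highest and 2 lowest by smaller difference, 2 on each side of the limit, the 2 most abundant in GB2, the 2 with lowest adjusted p in each direction per comparison, and runs of neighbours. Others named were chosen after their values were seen. Alternatives were other normalization, filters, DESeq2 1.42.0, groups in the fit, a replicate block and each library left out. Scripts were tested on simulated data. Figures used matplotlib 3.10.9. A gene table of another strain matched 0 transcripts and was not used.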

Additional observations from a re-analysis of the deposited data

Results flagged for a closer look

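Within the WT libraries, 12 values of named members stood far from the rest of their group, out of 38 groups examined, where chance alone marks about 1 group in 20. Of these, 9 were in WT replicate 2 at 48 h, the library left out above: it held 1488 CPM of transcript 10111, 76.0 of 10740, 7.60 of 11471, 60.8 of 11563, 146 of 13164, 13.7 of 14357, 4.56 of 15270, 92.7 of 16365 and 76.0 of 16376. The other 5 WT libraries of 48 h held, for example, 2374 to 2618 CPM of 10111, 62.9 to 71.4 of 11471 and 45.2 to 52.2 of 13164. The remaining 3 values were 0.881 CPM of transcript 10047 in WT replicate 1 at 18 h (others 4.81 to 7.14), 31.2 CPM of 10740 in WT replicate 5 at 18 h (others 20.03 to 22.2) and 16.7 CPM of 15270 in WT replicate 1 at 18 h (others 23.4 to 27.4).

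The difference of BIS3 from BIS18 changed between the times for 31 members by the interaction term of the edgeR quasi-likelihood fit at an adjusted p under 0.05. It was smaller at 48 h for 30 of them and larger for 1, transcript 14357. The call for 14357 was lost with RLE normalization, with DESeq2, with WT replicate 2 at 48 h kept, without each BIS18 or BIS3 library of 18 h in turn, and without replicate 1 or 3 of either strain at 48 h.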

How the results depend on the processing

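The number of members was 65 and became 27 with no median taken off, 100 with WT replicate 2 at 48 h kept and 103 with WT replicates 1 to 3 only. Other settings gave 52 to 84, and 59 to 73 without single libraries; 19 members passed under every one of the 27 settings. Calls at 18 h among members were 25 for BIS14 against BIS18 (8 to 37 without single libraries, 3 with only the 2 groups), 34 for BIS3 against BIS18 (26 to 42) and 5 for BIS3 against BIS14 (3 to 26, 0 with only the 2 groups, 2 with at least 10 counts in every library, 9 with 35 libraries in one fit). At 48 h they were 21 (14 to 27), 28 (13 to 31) and 26 (9 to 29, and 8 with only the 2 groups), and with WT replicate 2 kept 5, 6 and 0. Between the times they were 41 (35 to 45), 49 (43 to 50, and 32 with only the 2 groups) and 53 (47 to 55) in BIS18, BIS14 and BIS3. Calls for a change of the BIS14 to BIS18 difference between the times were 0 (0 to 2 without single libraries, 1 with DESeq2) and for BIS3 31 (22 to 35, 15 with WT replicate 2 kept), all settings of this test being added after the data were seen. DESeq2, RLE normalization, no low-count filter and leaving out BIS, Nat and Hyg moved no other count by over 1.5 times. Over 56 pairs of libraries with the same replicate number, correlations of deviations ran from -0.22 to 0.33 (median 0.02), and 8 were over 0.1. Pairs of unlike number were not compared, so this does not settle whether the numbers paired libraries. With a replicate block the counts were 21, 34 and 5 at 18 h, 21, 28 and 30 at 48 h, 42, 47 and 54 between the times, and 1 and 33 for the changes of BIS14 and BIS3. No median difference of the members changed sign in the 9 comparisons of strains or times. In those comparisons a named member's call was lost in 14 combinations of comparison and setting and reversed in 0; the interaction call of 14357 is not among them. The cause of these changes was not tested. Low counts limit members with few reads, and each strain is a single transformant.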
